A study of Homo sapiens with 4 samples.

Results

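The genes described here are the human zinc transporters and metallothioneins: every gene of the SLC30A (ZnT) and SLC39A (ZIP) families, the MT1 genes and MT2A, found by their symbols in the deposited expression table. There were 31 of them among 17215 genes in the table, namely 10 SLC30A genes, 13 SLC39A genes and 8 metallothioneins. The study set Cal51R, a doxorubicin-resistant derivative of the breast cancer cell line, against its parent line Cal51, and its stated purpose was to find deubiquitinating enzymes that govern resistance to doxorubicin, an anthracycline that damages DNA. Each line was represented by 2 libraries of oligo(dT)-selected RNA. No other group, treatment, dose or time was labelled. The labels do not say how Cal51R was derived, whether it is 1 clone, or whether doxorubicin was in the medium at harvest. Nor do they say that replicate libraries stem from separate cultures, so p-values measure only how far these libraries spread, and that spread may be technical.

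Zinc is held at very low free concentrations in the cytosol. ZnT proteins carry it out of the cytosol, across the plasma membrane or into organelles, and ZIP proteins carry it the other way. Metallothioneins are small cysteine-rich proteins that bind zinc and copper, and also cadmium. When cytosolic zinc rises, the zinc-finger factor MTF1 binds metal response elements in front of metallothionein genes and of SLC30A1, the main zinc exporter of the plasma membrane, and raises their transcription. Metallothionein genes also respond to glucocorticoids and to oxidative stress.

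The 8 metallothionein genes lie together on chromosome 16 of GRCh38.p14, between bases 56608584 and 56684196, a span of 75.6 kb, in the order MT2A, MT1E, MT1M, MT1A, MT1B, MT1F, MT1G and MT1X. Their metal response elements can be read in the promoters. RefSeq's table of 300-base windows, from 250 bases before a transcript's start to 50 after it, matched 23 of the 31 genes. Of the 8 others, 3 were transporter genes left out of the search by choice. The 4 windows printed here are those of the 3 metallothioneins that matched, one of them higher in Cal51R, one slightly lower and one hardly expressed, and of the exporter SLC30A1. The windows of MT1X, MT1B and SLC30A1 were chosen after values were seen. Each is given 5′ to 3′ on the strand of its gene, and capitals mark the core of the metal response element, TGCACNC or TGCGCNC, on either strand (a match on the opposite strand reads as its reverse complement):
MT2A: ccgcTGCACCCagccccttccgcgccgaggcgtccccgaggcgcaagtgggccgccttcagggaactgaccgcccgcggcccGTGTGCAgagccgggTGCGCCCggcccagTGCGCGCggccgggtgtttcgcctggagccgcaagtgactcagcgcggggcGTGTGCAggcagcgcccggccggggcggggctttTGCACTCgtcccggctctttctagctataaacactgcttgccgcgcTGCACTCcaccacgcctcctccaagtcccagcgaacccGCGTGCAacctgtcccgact
MT1X: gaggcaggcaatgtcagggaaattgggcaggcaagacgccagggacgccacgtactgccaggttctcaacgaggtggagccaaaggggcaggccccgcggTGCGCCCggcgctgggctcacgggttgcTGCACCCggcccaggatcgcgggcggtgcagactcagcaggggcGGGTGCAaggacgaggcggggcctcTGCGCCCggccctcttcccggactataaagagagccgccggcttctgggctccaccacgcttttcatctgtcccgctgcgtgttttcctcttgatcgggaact
MT1B: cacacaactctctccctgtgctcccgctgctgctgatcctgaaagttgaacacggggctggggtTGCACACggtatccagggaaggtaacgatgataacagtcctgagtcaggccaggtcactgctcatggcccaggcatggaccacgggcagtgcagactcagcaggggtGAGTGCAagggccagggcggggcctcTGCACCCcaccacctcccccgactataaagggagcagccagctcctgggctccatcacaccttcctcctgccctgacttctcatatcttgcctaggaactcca
SLC30A1: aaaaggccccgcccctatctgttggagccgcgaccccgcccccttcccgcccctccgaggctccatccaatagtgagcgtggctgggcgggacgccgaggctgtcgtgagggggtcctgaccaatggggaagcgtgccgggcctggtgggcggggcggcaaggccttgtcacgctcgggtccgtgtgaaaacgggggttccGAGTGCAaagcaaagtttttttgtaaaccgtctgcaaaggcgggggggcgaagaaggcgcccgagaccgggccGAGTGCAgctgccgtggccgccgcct

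MT2A, at chr16:56608334-56608633 on the plus strand, held 8 such cores. Their first bases lay at -246, -168, -153, -139, -88, -54, -8 and 30 relative to the transcript's start. At least 8 cores were found in 7 of all 35116 windows in the table, or 0.0199%. MT1X, at chr16:56682220-56682519 on the plus strand, held 4, a number reached by 0.601% of windows. MT1B, at chr16:56651636-56651935 on the plus strand, held 3, a number reached by 2.30% of windows, and SLC30A1, at chr1:211579112-211579411 on the minus strand, held 2, reached by 8.60%. No cores overlapped each other in these windows. A single core is common, being present in 29.6% of windows. The antioxidant response element core, TGACNNNGC on either strand, was present once in each of the 4 windows and in 13.3% of all windows, and it overlapped no metal response core in them. These are matches of letters and not measured binding sites.

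The 4 libraries held 17852484 and 19854907 assigned reads for Cal51R and 21637102 and 18537823 for Cal51, so that 3 reads, taken as the detection floor, correspond to 0.139 to 0.168 CPM (reads per 1000000 assigned reads) before scaling. CPM values below are scaled by TMM factors, which were 1.06 and 1.09 for Cal51R and 0.939 and 0.927 for Cal51. The lines differed widely. Of 13674 genes with enough reads to test, 70.8% passed edgeR's quasi-likelihood test at an adjusted p under 0.05, 35.3% higher in Cal51R and 35.5% lower, so that 49.9% of all calls were higher. With library totals in place of TMM scaling, 64.7% of all calls were higher in Cal51R (6395 higher and 3489 lower), and the median log2 fold change over all genes was 0.21 in place of 0.015. In Cal51R, 13.7% of tested genes were higher by at least 2-fold and 9.87% were lower by at least 2-fold. Epithelial markers of the labelled cell type were abundant in both lines: the 11 listed in the table, which include the mesenchymal marker VIM, summed to 6295 to 7466 CPM in Cal51R and 13210 to 15030 CPM in Cal51, led by KRT8, a keratin of simple epithelia, at 3635 ± 457 and 7859 ± 946 CPM (SD, n = 2 each). The lower sum in Cal51R comes mainly from KRT8 and its partner KRT18 (2588 ± 351 and 5395 ± 310 CPM), whereas KRT19, another keratin of simple epithelia, was higher in Cal51R (80.6 ± 3.72 and 3.43 ± 0.0848 CPM), as was CDH1, E-cadherin (2.34 ± 0.829 and 1.11 ± 0.171 CPM). Of these markers, KRT5 and KRT14, keratins of basal epithelia, averaged under 1 CPM in both lines. The 6 fibroblast and stromal markers summed to 395 to 406 CPM in Cal51R and 1617 to 1758 CPM in Cal51, nearly all of it COL1A2 (393 ± 6.80 and 1605 ± 96.8 CPM), whereas DCN and LUM were near 0. PDGFRB, another of them, averaged 0.513 ± 0.127 CPM in Cal51R and 69.0 ± 3.58 CPM in Cal51. The 5 blood and immune markers summed to 2.17 to 2.69 CPM in Cal51R and 14.1 to 14.8 CPM in Cal51, mostly CD68 (1.69 ± 0.365 and 11.4 ± 0.280 CPM), with CD3E near 0. PTPRC, the common leukocyte antigen, went the other way, at 12 and 12 reads in Cal51R and 5 and 3 reads in Cal51. It had enough reads to test only through its level in Cal51R. The 4 endothelial markers summed to 139 to 146 CPM in Cal51R and 53.6 to 57.0 CPM in Cal51, mostly PECAM1 (135 ± 5.09 and 50.6 ± 2.85 CPM), with KDR near 0. Their part in the results below was not tested. In bulk RNA, fewer cells expressing a gene and less of its RNA per cell cannot be told apart.

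Among the zinc genes, 24 had enough reads to test and 7 did not. Of the 24, 9 rose in Cal51R, 8 fell and 7 did not pass, so that the share called, 70.8%, equalled that over all genes tested. Their median log2 fold change was -0.04, against 0.015 over all genes tested. The lines did not overlap in 22 of the 24, and in 11625 of all 13674 genes tested. With 2 libraries a line, a lack of overlap was thus usual and does not set these genes apart. Without Cal51 replicate 1 the count lower was 5, and with library totals the calls were 12 higher and 5 lower. By family, of 6 metallothioneins tested, 5 rose, each by more than 2-fold, and 1 fell slightly, with a median log2 fold change of 2.33. MT1M passed the filter only through its level in Cal51R, and without it 4 of 5 rose, with a median of 2.08. Of 7 SLC30A genes tested, 2 rose, 1 fell and 4 did not pass (median -0.08), and of 11 SLC39A genes tested, 2 rose, 6 fell and 3 did not pass (median -0.20). No transporter rose by 2-fold, and SLC39A4 and SLC39A8 fell by more than 2-fold in read counts, although SLC39A4 differed by only -0.36 on the log2 scale in TPM.

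Metallothionein RNA was higher in Cal51R. Summed over the 8 genes it came to 138 and 116 CPM in the Cal51R libraries, against 43.8 and 42.2 CPM in the Cal51 libraries, a mean of 127 ± 16.01 CPM over 43.0 ± 1.11 CPM (SD, n = 2 each) and a ratio of 2.96. Both Cal51R libraries lay above both Cal51 libraries. The sum is given because parts of these genes are near-identical to each other, and the counting may have split reads between them. In GENCODE 29 transcripts, the share of 50-base words also found in another gene was 3.59% for MT1F, 4.88% for MT2A, 5.76% for MT1A, 7.05% for MT1M, 10.6% for MT1E, 14.3% for MT1G, 21.8% for MT1B and 55.8% for MT1X. These words were taken from the longest coding transcript of each gene. For MT1B and MT1X the shared words of that transcript lie in an annotated gene outside the sum, a different gene for each. Each of the other metallothioneins also shared some words with genes outside the sum, among them MT1H, MT1JP, MT1P1 and MT1P3. Summing does not bear on words shared with genes outside the sum. Some words of MT1A, MT1F, MT1G, MT1M and MT2A were also found in transcripts of MT1X.

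MT2A, the most abundant metallothionein in both lines, had 67.4 and 51.5 CPM in the Cal51R libraries, from 1272 and 1110 reads, against 25.6 and 22.7 CPM in the Cal51 libraries, from 520 and 391 reads. The lines did not overlap, and the log2 fold change was 1.29 ± 0.12 (SE), or 2.45-fold, with an adjusted p of 6.33e-08. Its promoter is the one above with 8 metal response cores.

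MT1E had 23.9 and 21.2 CPM in Cal51R and 3.44 and 4.07 CPM in Cal51, a log2 fold change of 2.59 ± 0.14 (adjusted p = 1.16e-10). MT1F had 21.0 and 19.9 CPM in Cal51R and 2.41 and 2.33 CPM in Cal51, a log2 fold change of 3.10 ± 0.15, or 8.58-fold (adjusted p = 2.06e-11). MT1G had 13.9 and 12.3 CPM in Cal51R and 3.00 and 3.20 CPM in Cal51, a log2 fold change of 2.08 ± 0.16 (adjusted p = 7.55e-09). In all 3 genes each Cal51R library was well above each Cal51 library, and replicates of a line stayed close to each other. These MT1 isoforms encode proteins of the same metal-binding kind as MT2A.

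MT1M stood at the edge of detection in Cal51. It had 70 and 83 reads (3.71 and 3.85 CPM) in Cal51R and 3 and 1 reads (0.148 and 0.0582 CPM) in Cal51. The ratio of reads, scaled for library size, was 35.5 with a 95% counting interval from 13.6 to 132, which covers counting error only. The gene passed the filter on low counts only through its level in Cal51R, so it had to differ, and the fitted log2 value of 5.07 drawn in the plot of the locus rests on the 4 reads of Cal51. MT1A, too low to test, had 12 and 5 reads in Cal51R and 1 and 2 reads in Cal51, a ratio of 5.26 with a 95% counting interval from 1.52 to 28.0. With no filter on low counts it was called higher in Cal51R (adjusted p = 0.0305). MT1B had 0 reads in both Cal51R libraries and 1 and 0 reads in Cal51, at or under the floor in each.

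MT1X, the last gene of the cluster, was not higher. It had 7.95 and 6.91 CPM in Cal51R and 9.10 and 9.71 CPM in Cal51, a log2 fold change of -0.34 ± 0.14 with an adjusted p of 0.0436. The lines did not overlap, but the call was lost in 10 of 13 alternatives, among them DESeq2 (adjusted p = 0.174), library totals (0.383), and the fits without Cal51 replicate 1 (0.0855), Cal51 replicate 2 (0.199) or Cal51R replicate 2 (0.206), with adjusted p-values from 0.0183 to 0.383 over all 13. As given above, 55.8% of this gene's 50-base words occur in another gene of GENCODE 29, the largest share among the 8. Whether that gene was in the annotation used for counting is not stated, and whether reads were shared was not tested. In the deposited TPM (a level that allows for transcript length), MT1X had 53.5 and 49.8 TPM in Cal51R and 55.0 and 55.6 TPM in Cal51.

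**Figure D1:**
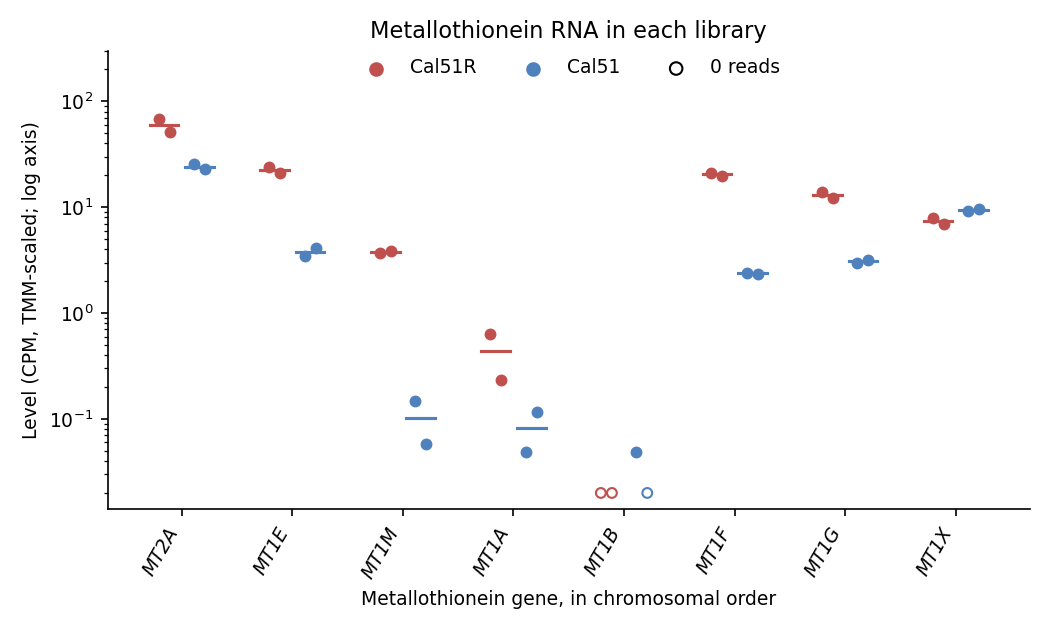
Level of each metallothionein gene in each library, in TMM-scaled CPM on a log axis, with Cal51R in red and Cal51 in blue; short bars are means over the 2 libraries of a line, and open circles mark libraries with 0 reads. MT2A, MT1E, MT1M, MT1F and MT1G are higher in both Cal51R libraries than in both Cal51 libraries, MT1X is slightly lower, and MT1B is at or near 0 in each.

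The make-up of the metallothionein RNA differed as well as its amount. As shares of the summed TPM of the 8 genes, MT2A made up 47.1% in Cal51R and 56.4% in Cal51, MT1E 18% and 8.89%, MT1F 15.3% and 5.20%, and MT1G 10.3% and 7.11%. The share of MT1M was 3.07% in Cal51R and 0.242% in Cal51. MT1X made up 5.88% in Cal51R and 21.9% in Cal51, where it was the second most abundant member after MT2A. Within each line the 2 libraries gave close shares: MT1X made up 5.77% and 5.99% in the Cal51R libraries and 20.8% and 22.9% in the Cal51 libraries.

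Genes on both sides of the cluster did not share the metallothioneins' direction on the whole. Of 26 listed neighbours on chromosome 16 that were in the table, 21 had enough reads to test: 4 rose in Cal51R, 12 fell and 5 did not pass, with a median log2 fold change of -0.29. The 16 called are 76.2% of those tested, against 70.8% of all genes. They include SLC12A3 and CETP among those that fell and CES1 among those that rose. Each of these had enough reads to test only through the line where it was high, so it had to differ. On the lower-coordinate side, the nearest listed genes were BBS2, part of the ciliary BBSome, at -0.10 ± 0.10 (adjusted p = 0.363), OGFOD1, a ribosomal prolyl hydroxylase, at -0.24 ± 0.08 (adjusted p = 0.0137), and NUDT21, a subunit of the cleavage factor for mRNA 3′ ends, at -0.49 ± 0.07 (adjusted p = 1.74e-05). On the other side, after MT1X, NUP93, a nuclear pore protein, stood at -0.50 ± 0.08 (adjusted p = 2.16e-05).

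Steeper falls lay beyond it. SLC12A3, a sodium-chloride cotransporter, averaged 0.606 ± 0.258 CPM in Cal51R, from 8 and 17 reads, and 57.0 ± 2.89 CPM in Cal51, a fitted log2 fold change of -6.51 ± 0.17. CETP, the cholesteryl ester transfer protein, averaged 0.119 ± 0.0937 CPM in Cal51R, from 1 and 4 reads, and 9.42 ± 0.321 CPM in Cal51, a fitted log2 fold change of -6.18 ± 0.33. Both genes had enough reads to test only through their levels in Cal51, so no p-value is given for them. Their fitted values rest on the few reads of Cal51R. HERPUD1, a stress-induced protein of the endoplasmic reticulum, lies between SLC12A3 and CETP and averaged 180 ± 2.06 CPM in Cal51R and 370.4 ± 2.72 CPM in Cal51 (log2 fold change -1.04 ± 0.07, adjusted p = 1.74e-09). Among the genes that rose, CX3CL1, a chemokine, changed by 0.51 ± 0.07 on the log2 scale (adjusted p = 1.30e-05) and DOK4, an adaptor protein, by 0.32 ± 0.08 (adjusted p = 1.68e-03). CES1, a carboxylesterase whose midpoint lies at -790.6 kb on the scale of the plot of the locus and that hydrolyses many drugs, had 679 reads over both Cal51R libraries and 0 in Cal51, at least 105-fold higher in Cal51R against a floor of 3 reads per library.

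**Figure D2:**
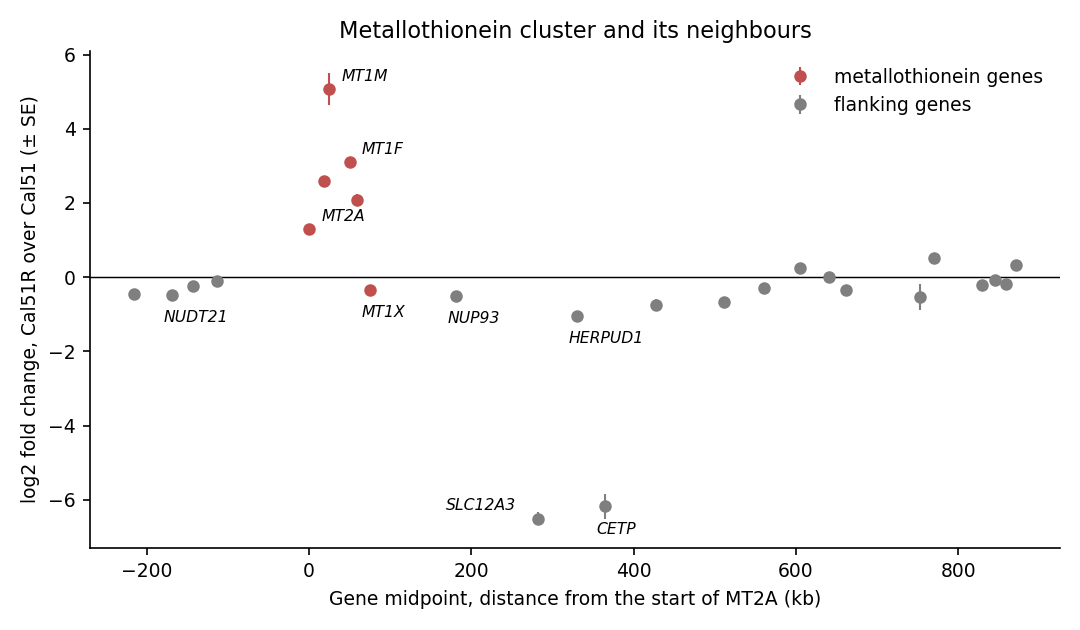
Log2 fold change, Cal51R over Cal51 (± SE), of the tested metallothioneins (red) and listed flanking genes (grey) against the distance of each gene's midpoint from the start of MT2A in kb; CES1 is not drawn, since it had 0 reads in Cal51. Of 6 metallothioneins tested 5 stand above 1, MT1X stands just below 0, and the nearest neighbours on both sides stand between -0.10 and -0.50.

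Among the zinc exporters 2 genes rose and 1 fell, each by less than 2-fold. SLC30A1, whose promoter is printed above, had 83.9 and 86.3 CPM in Cal51R and 69.4 and 67.9 CPM in Cal51, a log2 fold change of 0.31 ± 0.08 (adjusted p = 1.92e-03) that passed in all 13 alternatives. SLC30A7, which loads zinc into the Golgi, had 67.7 and 74.3 CPM in Cal51R and 61.3 and 53.7 CPM in Cal51, a log2 fold change of 0.30 ± 0.09 (adjusted p = 6.15e-03). That call was lost without Cal51 replicate 2 (adjusted p = 0.157). SLC30A5, which forms a complex with SLC30A6 in the early secretory pathway, had 74.6 and 79.2 CPM in Cal51R and 96.4 and 90.3 CPM in Cal51, a log2 fold change of -0.28 ± 0.08 (adjusted p = 4.54e-03). Its call was lost with library totals (adjusted p = 0.392) and without Cal51 replicate 1 (0.104), within a range of 6.01e-04 to 0.444 over its 13 alternatives.

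The other SLC30A genes did not pass the test. SLC30A6 had 47.7 and 51.9 CPM in Cal51R and 53.9 and 51.9 CPM in Cal51 (log2 fold change -0.09 ± 0.09, adjusted p = 0.365). SLC30A9, linked to zinc export from mitochondria, had 128 and 131 CPM in Cal51R and 135 and 138 CPM in Cal51 (-0.08 ± 0.07, adjusted p = 0.333). SLC30A4, a transporter of endosomes, was much less abundant, at 1.91 and 2.41 CPM in Cal51R and 1.57 and 1.16 CPM in Cal51. Its log2 fold change of 0.65 ± 0.29 had an adjusted p of 0.0561, and it passed with library totals (0.0152) and without Cal51 replicate 1 (0.0461) or Cal51R replicate 1 (0.0369). SLC30A2, which fills zinc vesicles in milk-secreting breast cells, had 0.530 and 0.371 CPM in Cal51R and 0.541 and 0.756 CPM in Cal51, from 8 to 13 reads a library, and a log2 fold change of -0.52 ± 0.46 (adjusted p = 0.328).

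A further 3 SLC30A genes were too low to test. SLC30A3, known from synaptic vesicles, had 5 and 4 reads in Cal51R and 6 and 9 in Cal51, SLC30A8, known from insulin granules, had 1 and 2 reads in Cal51R and 1 and 0 in Cal51, and SLC30A10, a manganese exporter, had 2 and 12 reads in Cal51R and 3 and 1 in Cal51. With no filter on low counts none of the 3 passed (adjusted p = 0.356, 0.588 and 0.138).

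Of the 11 SLC39A importers tested, 72.7% were called, against 70.8% of all genes. The split of 2 higher and 6 lower became 4 higher and 5 lower with library totals, and 4 and 4 in the limma fits on filtered FPKM. SLC39A1, a zinc importer of the plasma membrane, had 174 and 154 CPM in Cal51R and 246 and 258 CPM in Cal51, a log2 fold change of -0.62 ± 0.08 (adjusted p = 2.57e-06). SLC39A10, also of the plasma membrane, had 74.5 and 83.2 CPM in Cal51R and 139.7 and 138 CPM in Cal51, a log2 fold change of -0.81 ± 0.08 (adjusted p = 1.12e-07). SLC39A14, which takes up zinc, manganese and iron not bound to transferrin, had 90.5 and 94.97 CPM in Cal51R and 140.2 and 142 CPM in Cal51, a log2 fold change of -0.60 ± 0.07 (adjusted p = 1.75e-06). All 3 were lower in both Cal51R libraries than in both Cal51 libraries and passed in each of 13 alternatives.

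SLC39A4, the intestinal zinc importer lost in acrodermatitis enteropathica, had 29.3 and 24.4 CPM in Cal51R and 58.9 and 57.4 CPM in Cal51, a log2 fold change of -1.12 ± 0.10 (adjusted p = 3.68e-08), against -0.36 in TPM. SLC39A8, its relative that carries zinc and manganese, had 0.901 and 0.649 CPM in Cal51R and 2.07 and 2.27 CPM in Cal51. These values rest on 17 and 14 reads in Cal51R and 42 and 39 in Cal51, and the log2 fold change was -1.49 ± 0.32 (adjusted p = 5.96e-04). SLC39A6, the LIV-1 protein first known as an oestrogen-regulated gene of breast cancer, had 140.2 and 143 CPM in Cal51R and 168 and 159 CPM in Cal51. Its change of -0.20 ± 0.07 (adjusted p = 0.0194) was the least secure of the calls in this family: it was lost in 7 of 13 alternatives, among them library totals (adjusted p = 0.958) and the fits without Cal51 replicate 1 (0.244) or 2 (0.0719), over a range from 0.0122 to 0.968.

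Both SLC39A genes that rose encode intracellular or less studied carriers. SLC39A11 had 39.0 and 38.1 CPM in Cal51R and 24.9 and 25.8 CPM in Cal51, a log2 fold change of 0.61 ± 0.09 (adjusted p = 1.98e-05). SLC39A9, a transporter of the Golgi, had 127 and 138 CPM in Cal51R and 104 and 100 CPM in Cal51, a log2 fold change of 0.38 ± 0.08 (adjusted p = 3.25e-04). For both, the lines did not overlap, as in most genes tested, and the call held in all 13 alternatives.

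The 3 other tested SLC39A genes did not pass. SLC39A7, which releases zinc from the endoplasmic reticulum, had 265 and 237 CPM in Cal51R and 235 and 267 CPM in Cal51, with overlapping lines and a log2 fold change of 0.00 ± 0.08 (adjusted p = 0.972, 95% interval -0.17 to 0.18). SLC39A3 had 49.2 and 42.9 CPM in Cal51R and 39.8 and 45.5 CPM in Cal51, also overlapping, with a log2 fold change of 0.11 ± 0.10 (adjusted p = 0.321). SLC39A13, a carrier of intracellular vesicles that is mutated in a connective tissue disorder, had 28.6 and 24.8 CPM in Cal51R and 29.5 and 29.2 CPM in Cal51, with a log2 fold change of -0.14 ± 0.10 (adjusted p = 0.219). With library totals SLC39A7 and SLC39A3 passed as higher, SLC39A3 also passed as higher without Cal51R replicate 2, and SLC39A13 passed as lower without Cal51R replicate 1 (adjusted p = 0.0398). SLC39A2, with 0 reads in both Cal51R libraries and 1 and 0 in Cal51, and SLC39A5, with 0 and 1 reads in Cal51R and 2 and 1 in Cal51, were not tested, and with no filter neither passed (adjusted p = 0.503 and 0.520).

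Of the LIV-1 subfamily of ZIP proteins, which share a metalloprotease-like motif, the genes found here were SLC39A4, SLC39A5, SLC39A6, SLC39A7, SLC39A8, SLC39A10, SLC39A13 and SLC39A14. Of these 8 genes 7 were tested, 5 fell, none rose, and SLC39A7 and SLC39A13 did not pass, with a median log2 fold change of -0.60. The share called, 71.4%, was close to that of all genes. With library totals SLC39A6 no longer passed and SLC39A7 passed as higher.

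**Figure D3:**
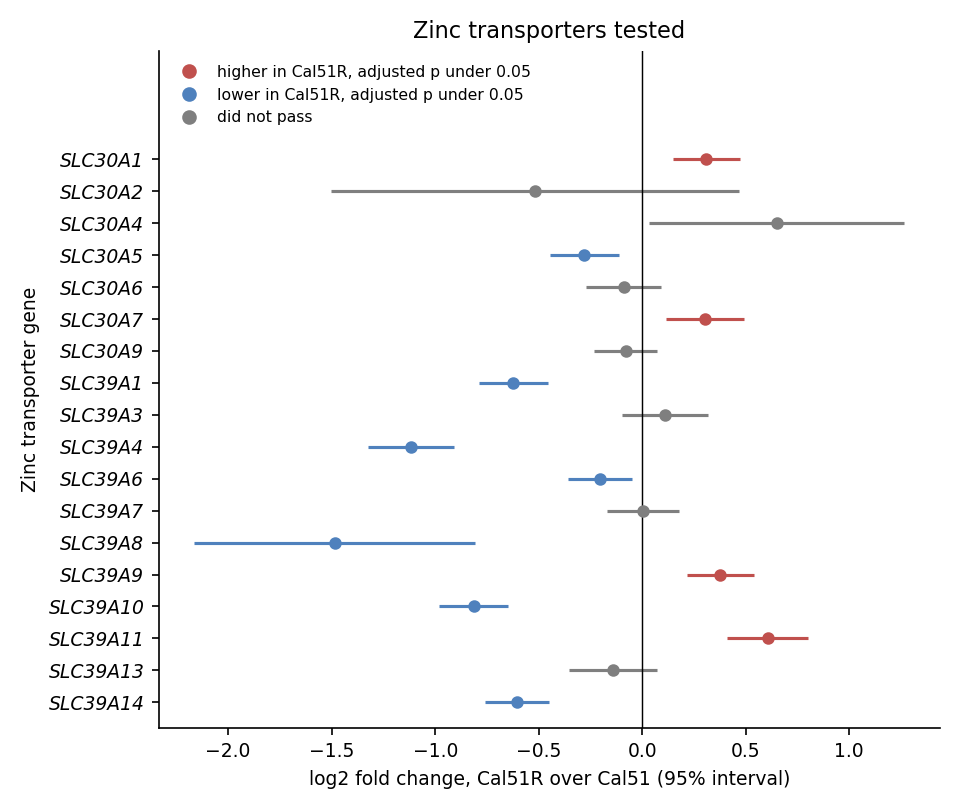
Log2 fold change, Cal51R over Cal51, with 95% interval not adjusted for the number of genes, of the 18 zinc transporters tested; red marks those higher in Cal51R and blue those lower in Cal51R at an adjusted p under 0.05, and grey those that did not pass. SLC39A8 and SLC39A4 lie farthest to the left, at -1.49 and -1.12, and no point reaches 1 on the right.

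The levels can be compared between genes only per length, for which the deposited TPM were used. In Cal51R the most abundant transporters were SLC39A7 at 283.5 ± 6.77 TPM and SLC39A1 at 201 ± 7.19 TPM, whose spreads do not meet. In Cal51 the order was SLC39A1 at 261.5 ± 0.651 TPM, then SLC39A7 at 233.5 ± 11.3 TPM. SLC39A6 followed in both lines, at 98.9 ± 5.11 TPM in Cal51R and 96.2 ± 7.08 TPM in Cal51. In Cal51R, SLC30A9 (80.4 ± 6.51 TPM), SLC39A3 (72.0 ± 3.75 TPM), SLC30A5 (71.5 ± 5.80 TPM) and SLC39A4 (66.1 ± 4.37 TPM) came next, and neighbours in that order differed by less than their spreads together. MT2A, at 415 ± 58.4 TPM in Cal51R, stood above every transporter there. In Cal51 it stood at 143 ± 17.1 TPM, below both SLC39A1 and SLC39A7.

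**Figure D4:**
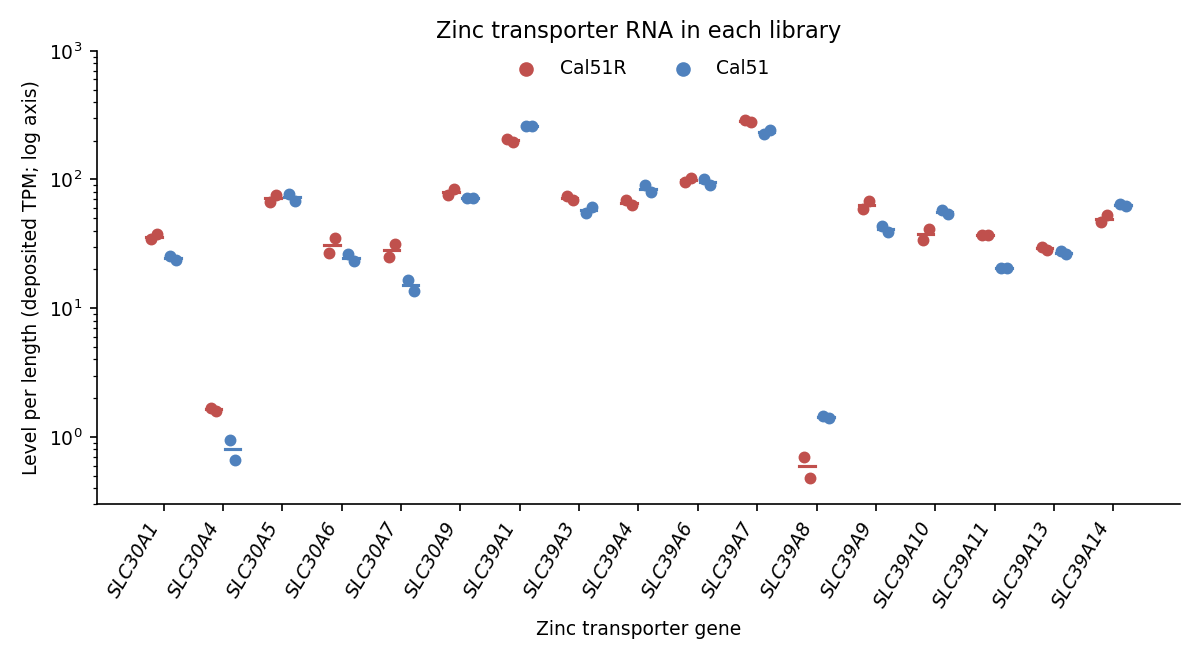
Deposited TPM, on a log axis, of the 17 zinc transporters with a mean over the libraries of at least 1 CPM, in each Cal51R library (red) and each Cal51 library (blue), with bars at the mean of a line. SLC39A1 and SLC39A7 lie highest in all 4 libraries, at 196 to 288 TPM, whereas SLC30A4 and SLC39A8 lie lowest, at 0.480 to 1.68 TPM.

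For 2 transporters the size of the change depended on whether reads or reads per length were compared. Over the 10849 genes with at least 1 FPKM and 20 reads in every library, the log2 fold change of the TPM exceeded that of the TMM-scaled counts. The median excess was 0.245, a difference of scaling. Dividing each read count by the FPKM and the library total gives the effective transcript length behind the deposited value, which in programs that estimate expected counts is a mean over a gene's transcripts weighted by their abundance. Among the same 10849 genes, this length differed between the lines by a ratio of at least 1.2, in either direction, in 1.08%. Of the 20 zinc genes among them, SLC39A4 and SLC30A7 did.

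SLC39A4 had an implied length of 1010 and 990 bases in the Cal51R libraries and 1398 and 1460 bases in the Cal51 libraries, a ratio of 0.699. Its TPM were 69.2 and 63.0 in Cal51R and 90.0 and 79.8 in Cal51, a log2 fold change of -0.36 where the counts gave -1.12. SLC30A7 had an implied length of 6449 and 6003 bases in Cal51R and 7889 and 7954 bases in Cal51, a ratio of 0.786. Its TPM were 25.0 and 31.7 in Cal51R and 16.6 and 13.7 in Cal51, a log2 fold change of 0.90 where the counts gave 0.30. For both genes the length was shorter in each Cal51R library than in each Cal51 library. SLC30A6 differed in the same direction by less, with a ratio of 0.895, and its log2 fold change was -0.09 from counts and 0.33 from TPM. For MT2A, MT1E, MT1F, MT1G and MT1X the ratios lay between 0.997 and 1.01. Levels per transcript isoform were not analysed here.

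**Figure D5:**
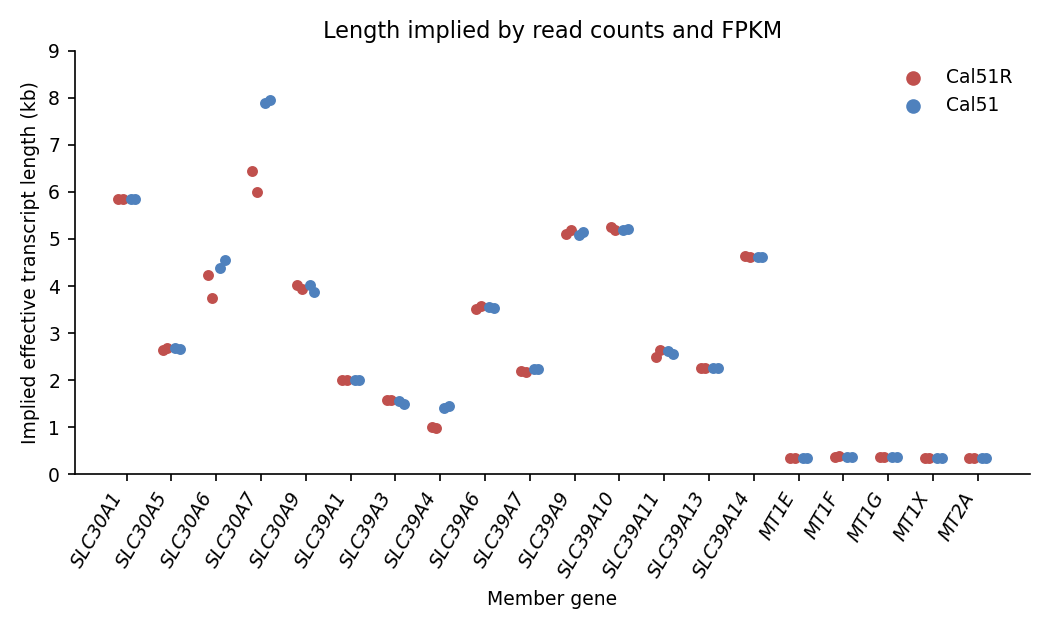
Effective transcript length, in kb, implied by the deposited read counts and FPKM of the 20 zinc genes with enough reads, in each Cal51R library (red) and each Cal51 library (blue). The lines coincide for most genes, and Cal51R lies lower for SLC39A4 (ratio 0.699) and SLC30A7 (ratio 0.786).

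Metal response cores were looked for in the windows of the transporters too. At least 1 core was present in 5 of 9 SLC30A genes and 7 of 11 SLC39A genes that had a window, against 29.6% of single windows in the table, but several of these genes have more than 1 window, which raises their chance of a match. Among transporters with a window, 1 of 4 that rose, 4 of 5 that fell, 5 of 7 that did not pass and 2 of 4 not tested held a core. SLC30A8, SLC39A4 and SLC39A14 were left out of the search and are not among these.

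MTF1, the factor that senses zinc, did not pass the test. It averaged 39.2 ± 0.0832 CPM in Cal51R and 34.4 ± 1.52 CPM in Cal51, a log2 fold change of 0.19 ± 0.09 with an adjusted p of 0.0691. It passed in 5 of 13 alternatives, those with library totals, with a filter of 5 CPM and with FPKM, over a range from 1.02e-03 to 0.391. Of 9 tested genes of zinc sensing and its regulators, 3 rose, none fell and 6 did not pass, a share called of 33.3% against 70.8% of all genes. HIF1A, the oxygen-regulated factor, rose by 0.68 ± 0.08 on the log2 scale (adjusted p = 6.32e-07), and SP1, a zinc-finger factor of many promoters, by 0.37 ± 0.07 (adjusted p = 2.28e-04). KEAP1, the adaptor that marks NRF2 for degradation, rose by 0.23 ± 0.08 (adjusted p = 0.0214), a call lost without Cal51 replicate 1 or 2 or Cal51R replicate 1.

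The list of zinc-requiring enzymes of the secretory pathway and cell surface also held genes that make, remodel or cut lipid anchors (PIGA, PIGG, PGAP2 and GPLD1). Not all of these need bind zinc. Among the 11 tested there were 2 that rose, 6 that fell and 3 that did not pass, and the share called was 72.7%, against 70.8% of all genes. The 6 include ALPP, with 1 and 1 reads in Cal51R and 46 and 26 in Cal51. They also include ALPG, with 2 and 5 reads in Cal51R and 49 and 42 in Cal51. Both had enough reads to test only through their levels in Cal51, so they had to differ. ALPL, the tissue-nonspecific alkaline phosphatase that receives zinc in the secretory pathway, averaged 93.5 ± 7.55 CPM in Cal51R and 438.7 ± 0.734 CPM in Cal51 (log2 fold change -2.23 ± 0.08, adjusted p = 4.12e-13). CA12, a carbonic anhydrase of the cell surface, averaged 36.5 ± 0.366 CPM in Cal51R and 166 ± 8.38 CPM in Cal51 (-2.19 ± 0.08, adjusted p = 5.52e-13), and ENPP4, a surface nucleotide hydrolase, averaged 8.45 ± 0.342 CPM in Cal51R and 32.8 ± 1.36 CPM in Cal51 (-1.96 ± 0.11, adjusted p = 1.39e-10). NT5E, the CD73 nucleotidase, and PIGG, an enzyme of lipid anchor synthesis, rose by 0.43 ± 0.08 (adjusted p = 2.26e-04) and 0.48 ± 0.09 (adjusted p = 2.23e-04) on the log2 scale.

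Genes for other metals moved in both directions. Of 18 iron genes tested, 3 rose, 8 fell and 7 did not pass, a share called of 61.1% against 70.8% of all genes. The 8 include TFR2, with 2 and 3 reads in Cal51R and 28 and 12 in Cal51. TFR2 had enough reads to test only through its level in Cal51. FTH1, the ferritin heavy chain, averaged 5524 ± 308 CPM in Cal51R and 1854 ± 139 CPM in Cal51 (log2 fold change 1.58 ± 0.09, adjusted p = 8.23e-11), although its many pseudogenes may share reads with it. FTL, the ferritin light chain, went the other way, at 1316 ± 134 CPM in Cal51R and 2316 ± 169 CPM in Cal51 (-0.82 ± 0.09, adjusted p = 4.09e-07). HMOX1, haem oxygenase, which metallothionein inducers often raise as well, averaged 8.46 ± 1.01 CPM in Cal51R and 4.27 ± 0.777 CPM in Cal51 (0.97 ± 0.18, adjusted p = 1.25e-04). CYBRD1, a ferric reductase, averaged 0.391 ± 0.103 CPM in Cal51R, from 6 and 10 reads, and 19.7 ± 0.895 CPM in Cal51 (fitted value -5.62 ± 0.22). It had enough reads to test only through its level in Cal51. SLC48A1, a haem transporter, fell by 1.29 and STEAP3, a metalloreductase of endosomes, fell by 0.97 on the log2 scale. STEAP2, a relative of STEAP3 at under 1 CPM in both lines, rose by 1.46, a call that DESeq2 did not give. STEAP2 had enough reads to test only through its level in Cal51R.

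Of 12 copper genes, 2 rose, 5 fell and 5 did not pass, a share called of 58.3% against the same 70.8%. COMMD1, which takes part in copper export, rose by 1.24 ± 0.12 and CCS, the copper chaperone of SOD1, by 0.74 ± 0.14 on the log2 scale. SOD1, the copper and zinc superoxide dismutase, fell by 0.76, and SCO2 and SCO1, which bring copper to cytochrome c oxidase, fell by 0.88 and 0.61. Of 5 manganese genes, 1 rose, 2 fell and 2 did not pass, a share called of 60%. SLC11A1, a divalent metal carrier of phagocytes, averaged 0.560 ± 0.333 CPM in Cal51R, from 15 and 7 reads, and 5.24 ± 0.241 CPM in Cal51 (fitted value -3.25 ± 0.32). It had enough reads to test only through its level in Cal51. TMEM165, a Golgi manganese carrier, fell by 0.35 (lost with library totals). The 1 that rose was ATP2C2, a Golgi calcium and manganese pump, at about 1 CPM or less (fitted value 1.25). It had 17 and 32 reads in Cal51R and 14 and 5 in Cal51. Its call was lost under DESeq2 and without Cal51 replicate 2 or Cal51R replicate 2. ATP2C2 had enough reads to test only through its level in Cal51R.

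Since glucocorticoids also induce metallothioneins, other targets of theirs and the receptor itself were listed beside them. All 10 tested genes of that list were called, against 70.8% of all genes, 5 higher and 5 lower in Cal51R, with a median log2 fold change of -0.06. NR3C1, the glucocorticoid receptor, averaged 20.2 ± 2.23 CPM in Cal51R and 1.12 ± 0.433 CPM in Cal51 (log2 fold change 4.14 ± 0.20, adjusted p = 2.05e-11). TSC22D3, an anti-inflammatory target, averaged 60.8 ± 0.00297 CPM in Cal51R and 15.9 ± 1.63 CPM in Cal51 (1.93 ± 0.10, adjusted p = 3.96e-11), and NFKBIA, the inhibitor of NF-κB, rose by 0.89 ± 0.08 (adjusted p = 2.99e-08). In the other direction, KLF9, a transcription factor, averaged 2.83 ± 0.127 CPM in Cal51R and 13.2 ± 1.24 CPM in Cal51 (-2.22 ± 0.16, adjusted p = 3.90e-09), ERRFI1, a feedback inhibitor of the EGF receptor, fell by 1.85 (adjusted p = 2.02e-12), and DUSP1, a MAP kinase phosphatase, fell by 1.11 (adjusted p = 1.52e-08).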

How the data were processed

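Polyadenylated RNA of 2 Cal51R and 2 Cal51 libraries was fragmented, copied to cDNA, amplified by PCR and sequenced as DNA nanoballs, per the labels' protocols. RSEM 1.2.8, Bowtie2 2.2.5, HISAT2 2.1.0 and DESeq, and the build hg38, appear without roles in the submitters' processing notes. Annotation, molecular identifiers and use of strand are not stated, so overlapping antisense genes cannot be told apart. Each library has read counts, FPKM and TPM in 1 deposited table, per the file headers. From their values the deposited read counts are expected counts (27.0% to 31.8% of a library's values were exactly whole), and they were rounded here. The authors' FPKM values were used in alternatives and for implied lengths, and the authors' TPM values for levels per length. Libraries were assigned by their titles.

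Counts were scaled by TMM and filtered with filterByExpr (minimum count 10), which left 13674 genes and removed 3541. They were tested in R 4.3.3 by the quasi-likelihood method of edgeR 4.0.16, with no term but the line, and Benjamini-Hochberg adjustment over the genes left. Rose and fell mean an adjusted p under 0.05. SE is the log2 fold change over the root of F, and the common spread between replicates was 5.83% (coefficient of variation). Counting intervals and floors cover counting error only, whereas the 95% intervals of log2 fold changes are built from the SE of the fit. The main fit, DESeq2, limma with a pseudocount of 1, the fits with 1 library left out and the replicate block were tested on simulated data. The other alternatives were not. Every member is accounted for, those of at least 1 CPM on average with each library's value. From related lists up to 3 genes in each direction with the smallest p are named, and from marker lists the most abundant. MTF1, FTL, genes nearest the cluster and further markers were added to that rule afterwards. The genes described, the lists and the promoters were chosen with earlier results of these data known. Alternatives used DESeq2 1.42.0, limma 3.58.1 on log2(FPKM + pseudocount), other scaling and filters, and each library left out. Names and positions are from the RefSeq table (GRCh38.p14), in which all 31 genes matched by gene ID.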

Additional observations from a re-analysis of the deposited data

How the results depend on the processing

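Of the calls for single zinc genes, those of MT2A, MT1E, MT1F, MT1G, SLC30A1, SLC39A1, SLC39A4, SLC39A9, SLC39A10, SLC39A11 and SLC39A14 kept their direction and passed in all 13 alternatives run, that of MT1M in 12 and that of SLC39A8 in 10, the others being filters that removed them. Library totals gave 5 zinc genes lower and 31 genes of the related lists higher, against 8 and 20. The limma fits on log2(FPKM + 1) and log2(FPKM + 0.1) gave 4 and 4 zinc genes lower, or 5 without a filter, and 3216 and 3201 genes lower in all, against 4855. In both, SLC30A6 turned to 0.25 and 0.27 and passed. Leaving out 1 library at a time, with the lone library assumed to vary like the other line, gave 5 to 9 zinc genes lower, 8 to 10 higher, 4115 to 4919 genes lower in all and 4061 to 4827 higher. The summed metallothionein log2 ratio was 1.56, and it was 1.76 with library totals, 1.79 from TPM and 1.43 to 1.69 with 1 library left out. The cause of these differences was not tested, and at this depth genes with few reads a library cannot show small changes.

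The labels do not say that replicate numbers pair libraries of the 2 lines, and deviations of same-numbered libraries correlated at -0.11. With the replicate number as a block, 4458 genes were higher and 4447 lower, with 9 zinc genes higher and 6 lower. MT1X, SLC39A6 (adjusted p = 0.0954) and KEAP1 (0.0693) no longer passed in the replicate block. A crossed pairing, chosen after seeing the data, gave 5321 genes higher and 5336 lower, with 10 and 8 zinc genes.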
